A study of Mus musculus with 2 samples.

Results

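The transcripts described here are those of 37 genes of the G2 phase and of mitosis, out of 55357 features in the count matrices. The genes were chosen by name, and all 37 were found in the files. They were read across cell classes in CD45-sorted cells from lungs of C57 mice that carried metastases of B16F10, a mouse melanoma line. CD45 is the surface protein used to sort white blood cells. In 1 library the tumour cells were labelled IRF7-C435A mutant, which is IRF7 with a cysteine exchanged for alanine, and in the other they were labelled wild-type. They are named here the C435A library and the WT library, and every pair of values gives C435A before WT. The immune cells of both groups carried no labelled mutation, and the genotype belongs to the injected line only. The age of the mice, how many mice stand behind each library and whether the mutant line is 1 clone were not stated in the labels.

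With 1 library per group, no test between the conditions could be made. The replicate spread is unknown, and bracketed 95% intervals reflect the error of counting alone. The libraries held 10373 and 10156 barcodes and 59615672 and 54934397 UMIs, or unique molecular identifiers, each of which marks 1 captured RNA molecule. After filters on depth and mitochondrial share and the removal of likely doublets, 9427 and 9199 cells remained. The 2 libraries shared 24 barcode sequences. Although the cell type label reads melanoma cell, melanoma cells made up 0.45% and 0.96% of the kept cells and T cells, by UMIs of Cd3d, Cd3e, Cd3g and Trac, 38.5% and 38.2%. The counts are of 3′ ends and do not read the altered codon, so the genotype labels were not checked.

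A dividing cell copies its DNA in S phase, passes through G2 and then separates the copies in mitosis. Genes of G2 and mitosis are kept silent in resting cells by the DREAM complex, and are switched on late in the cycle by B-Myb and FoxM1. These complexes reach many of the genes through a promoter element named CHR, the cell cycle genes homology region, and often need CCAAT boxes, the sites of NF-Y, close by. S phase genes are instead typical targets of E2F factors. In T cells, B cells and plasmablasts these transcripts mark clonal expansion, while alveolar macrophages are known to renew themselves by division in the lung.

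Promoter windows from RefSeq (GRCm38.p6), running from 250 bases before to 50 bases after the transcription start, were matched by symbol for 32 of the 37 genes. There was no window for Ccna2, Tpx2, Aurkb, Smc4 and Pimreg. Both strands were searched for 3 motifs. CHR was read as TTTGAA and also as TTCGAA. The NF-Y box was read as CCAAT. The E2F site was read as TTTCCCGC, and likewise as TTTGGCGC, and in a last form as TTTCGCGC. CHR letters stood in 26 of 32 windows (81.2%), against 21.7% of the 27025 genes with a window. CCAAT stood in 24 (75.0%), against 41.1%, and both together in 22 (68.8%), against 8.61%. An E2F match was found in 1 window, that of Cdk1 (3.12%, against 2.12% of all genes), while 13 of 30 S phase genes with a window had one (43.3%) and 5 of 30 had CHR (16.7%). CHR lay within 50 bases of the start in 23 of 32 windows (71.9%), against 6.12% of all genes. The windows of Kif2c, Cdca8 and Cdca3 lay wholly inside the gene span of the GENCODE vM21 annotation. Their matches are therefore not at the 5′ end of that annotation. A match describes letters only and is not a bound site.

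The following stretches run from 130 bases before to 30 bases after the start, 5′ to 3′ on the strand of the gene, with CHR and CCAAT matches of either strand in capitals. They were chosen to show genes of several roles with CCAAT and CHR letters near the start, and 1 abundant gene, Birc5, whose stretch has neither. No kinetochore gene is among them. The positions are chr10:69352883-69353042 for Cdk1 (minus strand), chr9:70421525-70421684 for Ccnb2 (minus), chr4:118437314-118437473 for Cdc20 (minus), chr2:164769799-164769958 for Ube2c (plus), chr11:99024160-99024319 for Top2a (minus), chr11:40733408-40733567 for Hmmr (minus), chr9:61946770-61946929 for Kif23 (minus) and chr11:117849107-117849266 for Birc5 (plus).
Cdk1: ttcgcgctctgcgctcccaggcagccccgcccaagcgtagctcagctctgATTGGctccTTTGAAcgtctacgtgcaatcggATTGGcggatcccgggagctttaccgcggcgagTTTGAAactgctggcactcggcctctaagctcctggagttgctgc
Ccnb2: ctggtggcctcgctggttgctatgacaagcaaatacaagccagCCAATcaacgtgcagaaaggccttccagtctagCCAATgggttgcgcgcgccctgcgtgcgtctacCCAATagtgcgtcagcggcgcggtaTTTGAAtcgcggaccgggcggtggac
Cdc20: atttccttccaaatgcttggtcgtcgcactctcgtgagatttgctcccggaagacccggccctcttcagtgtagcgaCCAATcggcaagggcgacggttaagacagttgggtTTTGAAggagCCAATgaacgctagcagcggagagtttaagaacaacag
Ube2c: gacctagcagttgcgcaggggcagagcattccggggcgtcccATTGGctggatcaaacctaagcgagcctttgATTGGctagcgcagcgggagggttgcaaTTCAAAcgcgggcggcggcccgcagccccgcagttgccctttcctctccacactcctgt
Top2a: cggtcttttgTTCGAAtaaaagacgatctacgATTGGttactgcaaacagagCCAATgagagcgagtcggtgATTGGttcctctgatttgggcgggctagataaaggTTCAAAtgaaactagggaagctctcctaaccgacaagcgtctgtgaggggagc
Hmmr: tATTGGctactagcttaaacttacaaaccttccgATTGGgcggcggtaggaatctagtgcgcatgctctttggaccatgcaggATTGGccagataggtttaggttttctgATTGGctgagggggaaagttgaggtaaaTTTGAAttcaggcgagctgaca
Kif23: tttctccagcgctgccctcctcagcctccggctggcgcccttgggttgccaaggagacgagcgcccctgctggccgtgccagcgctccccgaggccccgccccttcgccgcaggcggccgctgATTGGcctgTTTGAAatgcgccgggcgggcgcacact
Birc5: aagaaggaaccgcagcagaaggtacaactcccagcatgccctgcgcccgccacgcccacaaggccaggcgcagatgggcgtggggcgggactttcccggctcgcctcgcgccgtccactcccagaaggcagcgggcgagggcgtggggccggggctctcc
In these windows the CHR closest to the start began 15 bases before it in Cdk1, 18 bases before it in Cdc20, 29 in Ube2c and 23 in Top2a. In Ccnb2, Hmmr and Kif23 it began at base 5, 9 and 3 of the transcript. The 6 genes with a window and no CHR match were Birc5, Nusap1, Ccnb1, Cenpe, Tacc3 and Nuf2.

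**Figure D1:**
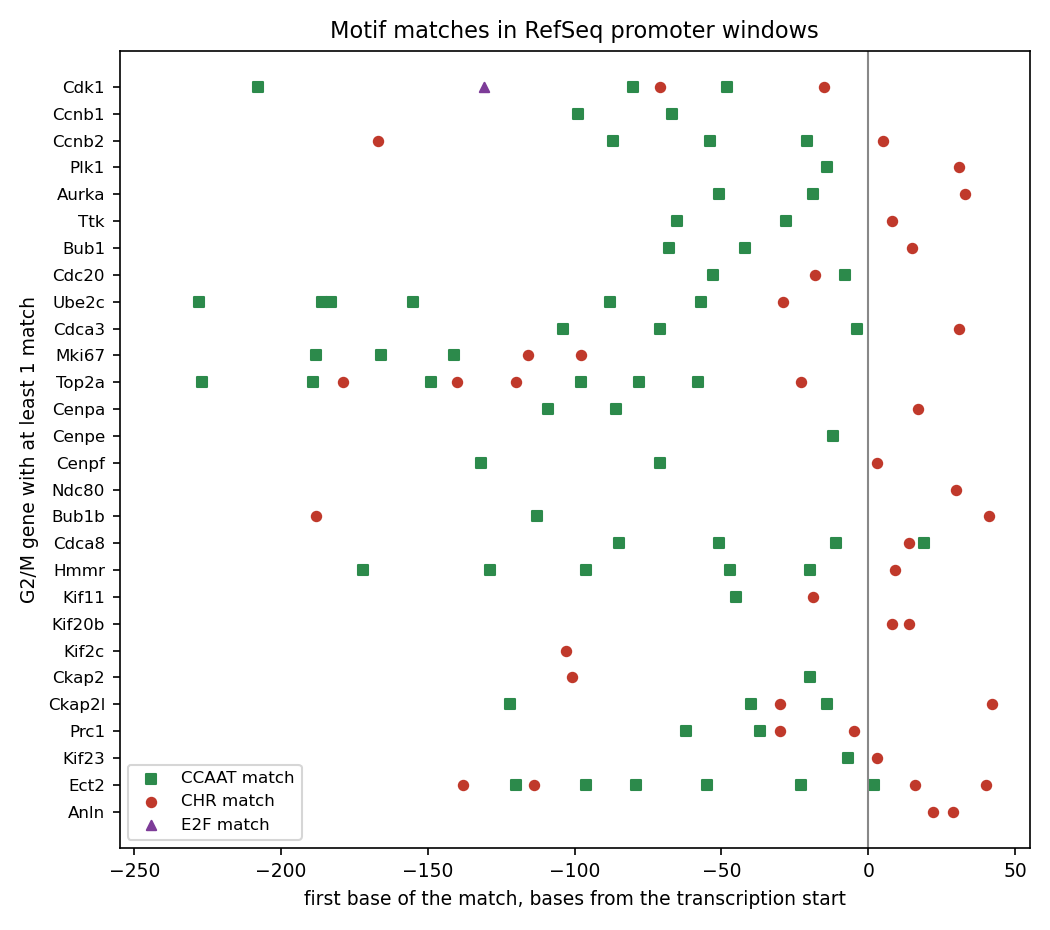
Positions of CCAAT (green squares), CHR (red circles) and E2F (purple triangle) letters in the promoter windows of the 28 genes with at least 1 match; the horizontal axis is the first base of the match in bases from the transcription start, and each row is a gene. The CHR matches gather around the start, with 23 of 32 genes having one within 50 bases, and CCAAT matches lie mostly before it. Prc1 and Ect2 have more than 1 overlapping window, and the matches of each window are drawn, so their sites appear at more than 1 position.

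Over all kept cells the 37 genes held 166788 and 68477 UMIs, or 3318 and 1472 per 1000000 UMIs of the library (CPM). This was a log2 ratio of the C435A library over the WT library of 1.17 [1.16, 1.19]. The surplus lay in the T cells. All T cells, with the few gamma delta T cells, held 61.0% of these UMIs in the C435A library and 20.7% in the WT library, while being a nearly equal share of the cells. In the WT library more of the UMIs were in B cells (9.67% and 18.4%), alveolar macrophages (4.05% and 12.9%) and melanoma cells (1.19% and 17.3%). Cells that met the markers of more than 1 lineage held 10.8% and 11.5%, and they were set aside. The removed likely doublets held 30983 and 16198 UMIs of the 37 genes, and with them kept the ratio in CD8 T cells was 2.50.

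The order of the classes differed between the tumours. In the C435A library the highest level was in CD8 T cells (5539 CPM), followed by CD4 T cells (4923 CPM), other T cells (3820 CPM), and plasmablasts and plasma cells (3779 CPM). In the WT library the melanoma cells were highest (3074 CPM), then plasmablasts and plasma cells (2449 CPM), CD4 T cells (2129 CPM) and granule-rich neutrophils (2071 CPM), whereas CD8 T cells had 901 CPM. The counting intervals of other T cells and of plasmablasts and plasma cells overlapped in the C435A library. Those of CD4 T cells and granule-rich neutrophils overlapped in the WT library. In both libraries monocytes (387 and 154 CPM) and mature neutrophils (425 and 281 CPM) were lowest among the 13 classes compared. Plasmacytoid dendritic cells, too few to compare, were lower still in both libraries (197 and 118 CPM, from 35 and 27 UMIs).

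**Figure D2:**
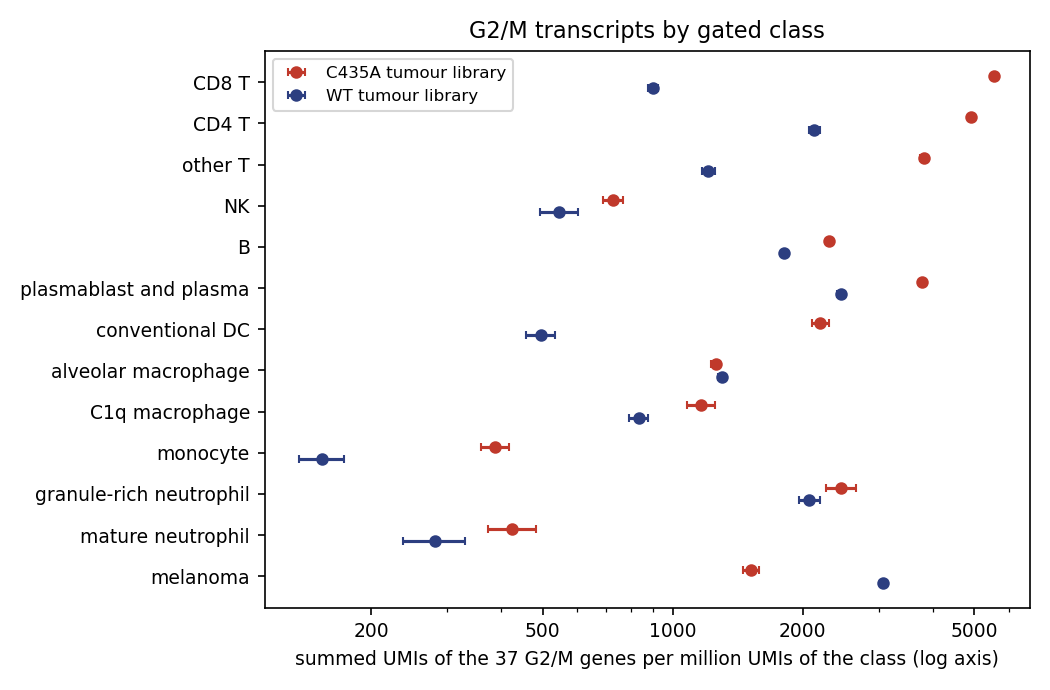
Summed UMIs of the 37 genes per 1000000 UMIs of each class (log axis), with red points for the C435A library and blue points for the WT library; bars are exact 95% counting intervals. CD8 T cells are the most widely separated class (5539 and 901 CPM), alveolar macrophages nearly coincide (1259 and 1303 CPM), and melanoma cells lie the other way (1519 and 3074 CPM).

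CD8 T cells, the lineage that kills infected and tumour cells, were taken as T cells with at least 2 UMIs of Cd8a and Cd8b1 and 0 of Cd4 (2083 and 1762 cells). They held 73747 and 5682 UMIs of the 37 genes, a log2 ratio of 2.62 [2.58, 2.66], or 6.15-fold. Of the 37 genes, 36 were at least 1.5-fold higher in the C435A library and 0 were lower, where 18.0% of the 12297 genes with at least 20 UMIs in the class were higher by that size and 23.3% lower. The median over the 37 genes was 3.16, against -0.05 over all genes. Smc4 was the exception, at 0.27 [0.19, 0.35]. Kif2c reached 20 UMIs in the C435A library only, and of the 36 genes that did so in each library 35 were higher.

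All 9 cyclins and mitotic kinases were higher in CD8 T cells, with a summed level of 1064 and 98.4 CPM (3.43 [3.32, 3.55]). Cdk1, the kinase that drives entry into mitosis, had 2727 and 128 UMIs (3.34 [3.08, 3.60]). Its partner Ccnb2, a B-type cyclin, had 3224 and 125 (3.61 [3.35, 3.88]), and Ccna2, the cyclin of S phase and G2, had 2665 and 121 (3.38 [3.12, 3.66]). Aurkb, the kinase of the chromosomal passenger complex, had 1579 and 63 UMIs (3.57 [3.21, 3.96]). Among the others were Ccnb1 (1418 and 52 UMIs, 3.69), the polo kinase Plk1 (1131 and 56, 3.26), the spindle pole kinase Aurka (646 and 33, 3.21), and the checkpoint kinases Bub1 (445 and 22, 3.26) and Ttk (333 and 21, 2.91). The interval of every one of these 9 genes lay above a log2 ratio of 2.

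The anaphase-promoting complex marks securin and B-type cyclins for destruction so that sister chromatids can part. Its 4 genes and partners summed to 835 and 77.2 CPM (3.44 [3.30, 3.57]). Ube2c, its ubiquitin-conjugating enzyme, had 6653 and 275 UMIs (3.52 [3.35, 3.70]), and Cdc20, its activator, had 1804 and 90 (3.25 [2.94, 3.57]). Cdca3, which acts in entry into mitosis, had 2270 and 99 UMIs (3.44 [3.15, 3.75]). Pimreg had 393 and 23 (3.02 [2.41, 3.69]).

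The 3 genes of chromosome structure did not move together. Top2a, the topoisomerase that disentangles sister DNA, had 5955 and 375 UMIs (2.91 [2.76, 3.07]). Mki67, which encodes the Ki-67 antigen that coats mitotic chromosomes, had 4549 and 250 (3.11 [2.92, 3.30]). Smc4, a core subunit of condensin, had 4551 and 1787 UMIs. With the larger total of the class in the C435A library, this came to 342 and 283 CPM.

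At the centromere and kinetochore, where spindle fibres attach, all 8 genes of the group were higher, with a sum of 815 and 137 CPM (2.57 [2.47, 2.67]). Cenpa, the histone variant of centromeres, had 4671 and 444 UMIs (2.32 [2.18, 2.46]). Cenpf, a large kinetochore protein, had 2014 and 113 UMIs (3.08 [2.80, 3.36]), and the kinetochore motor Cenpe had 1261 and 70 (3.09 [2.75, 3.46]). The checkpoint protein Bub1b had 870 and 47 UMIs (3.13 [2.71, 3.59]). The partners Ndc80 (777 and 117 UMIs, 1.65 [1.37, 1.95]) and Nuf2 (476 and 30, 2.91 [2.38, 3.49]) sit in 1 complex that holds microtubules, and their intervals did not overlap. The ratio of Ndc80 lay well under the median of the list.

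The chromosomal passenger complex corrects faulty attachments and later directs cytokinesis. Its genes Birc5 (6477 and 278 UMIs, 3.46 [3.29, 3.64]) and Cdca8 (2854 and 137, 3.30 [3.06, 3.56]) were higher along with Aurkb, with a sum of 819 and 75.8 CPM over the 3.

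All 9 spindle genes were higher, with 756 and 90.7 CPM in sum (3.06 [2.94, 3.18]). Nusap1, which bundles microtubules, had 2201 and 102 UMIs (3.35 [3.07, 3.66]), and Kif11, the motor that pushes spindle poles apart, had 1659 and 83 (3.24 [2.93, 3.58]). Tpx2, the activator of Aurka, had 1534 and 89 UMIs (3.03 [2.72, 3.36]), and Tacc3, which crosslinks spindle fibres, had 1227 and 65 (3.16 [2.80, 3.54]). The highest ratio of all 37 genes was that of Kif2c, a motor that takes microtubules apart (564 and 17 UMIs, 3.97 [3.28, 4.76]). It was the only gene under 20 UMIs in the WT library, so this rank is a description. Hmmr (978 and 66 UMIs, 2.81), Ckap2l (676 and 41, 2.97), Ckap2 (607 and 36, 2.998) and the motor Kif20b (617 and 73, 2.00 [1.65, 2.37]) completed the group.

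The 4 genes of the spindle midzone and of cytokinesis, the final cut between daughter cells, summed to 296 and 56.1 CPM (2.40 [2.24, 2.56]). Prc1, which crosslinks the midzone, had 1815 and 75 UMIs (3.52 [3.19, 3.87]). Kif23, the motor of the centralspindlin complex, had 1199 and 224 (1.34 [1.14, 1.56]). Ect2, which activates the small GTPase RhoA at the furrow, had 598 and 27 UMIs (3.39 [2.84, 4.01]), and Anln, the scaffold of the furrow, had 329 and 28 (2.48 [1.92, 3.09]). The CHR letters did not separate the genes by ratio in this class. The 26 genes with a match ran from 1.34 (Kif23) to 3.97 (Kif2c), with a median of 3.17, and the 6 without ran from 2.91 (Nuf2) to 3.69 (Ccnb1), with a median of 3.26. The window of Kif2c lay inside its annotated gene span, as given above, and the gene reached 20 UMIs in the C435A library only.

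**Figure D3:**
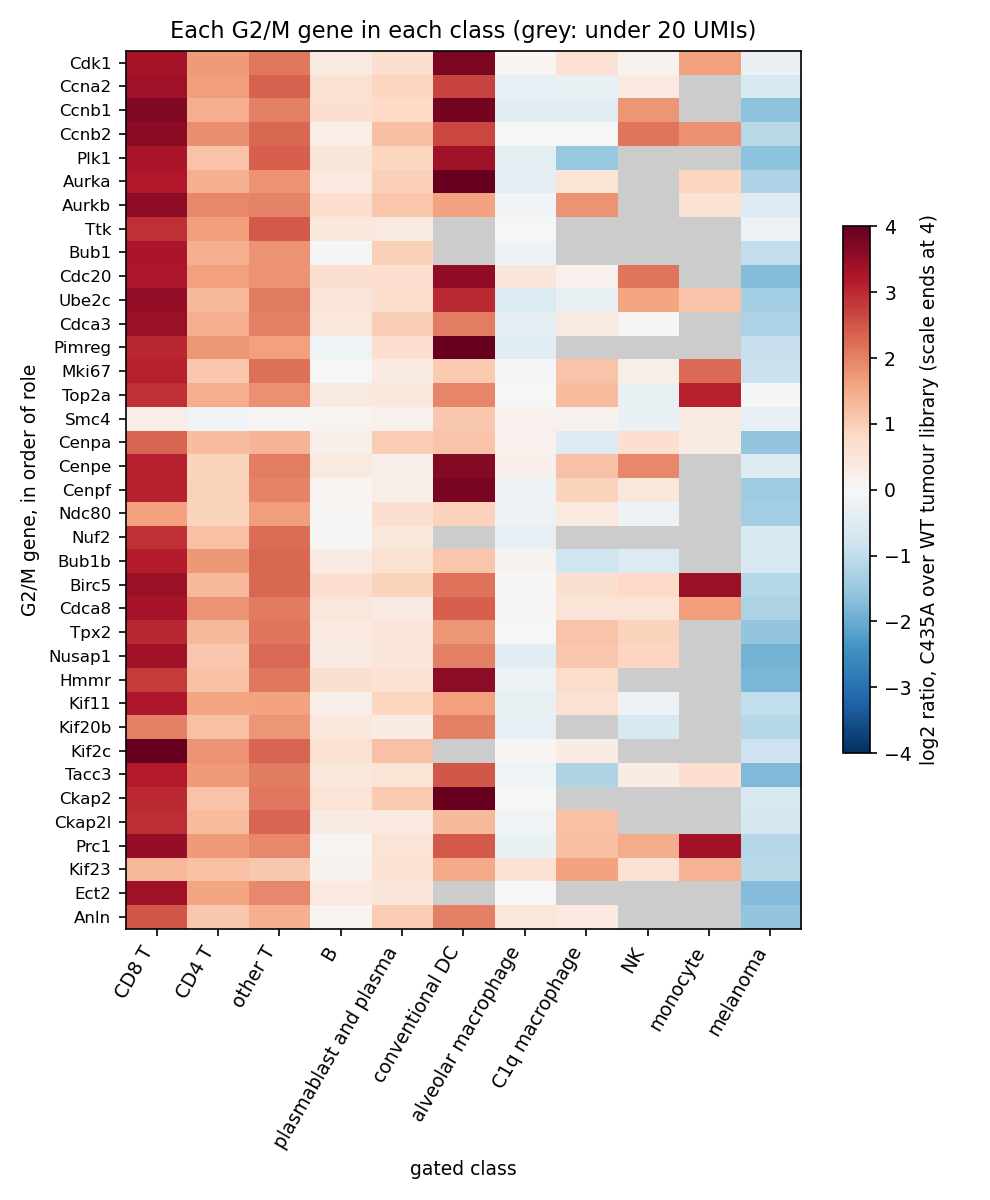
Log2 ratio of the C435A library over the WT library for each of the 37 genes (rows, by role) in 11 classes (columns); red is higher and blue lower in the C435A library, and grey marks genes with under 20 UMIs. In the CD8, CD4 and other T cell columns every row except Smc4 is red, the alveolar macrophage column is pale (only Kif23 reaches 1.5-fold), and 31 of 37 rows of the melanoma column are lower by at least 1.5-fold.

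A larger share of CD8 T cells had these transcripts in the C435A library. To hold depth equal, each cell was thinned to 1000 UMIs (2 and 1 shallower cells were left out), and a cell with at least 2 UMIs of the 37 genes was called positive. The positive share was 41.0% [38.9, 43.2] and 10.4% [9.06, 12.0], a difference of 30.6 percentage points [28.0, 33.1]. Positive cells held a mean of 7.98 and 3.77 UMIs of the 37 genes per 1000. Of the 854 and 184 positive cells, 181 and 105 held exactly 2 such UMIs, the minimum. Unthinned, the shares were 70.24% and 40.01%, at median depths of 4687 and 3216.5 UMIs. Cells with at least 5 of these UMIs per 1000, a threshold chosen after the values were seen, were 525 and 31 cells, or 25.2% and 1.76%. Such strongly positive cells, chosen by the same UMIs, carried a mean of 11.3 and 10.6 per 1000. Of all 73747 UMIs in the C435A library, 50% were in 190 cells, and of the 5682 in the WT library, in 30 cells.

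The positive share has a floor that a few genes set. Mature neutrophils, which have left the cell cycle, were positive in 8.70% and 5.06% of 230 and 237 thinned cells, at median depths of 1655.5 and 1742 UMIs. Without Smc4, Kif23 and Cenpa these shares were 1.30% [0.27, 3.76] and 0.42% [0.01, 2.33]. In CD8 T cells the shares without the 3 genes were 34.1% [32.0, 36.2] and 2.67% [1.97, 3.53], and the summed log2 ratio was 3.22. Plasmacytoid dendritic cells had 0 positive cells of 45 and 50, with upper bounds of 7.87% and 7.11%. Marker genes of other cell types were also summed in CD8 T cells. Such sums do not separate RNA of other cells from RNA that the T cells made. Summed over 8 melanoma markers, with 0 of them at 0, CD8 T cells held 27.4 and 123 CPM. Macrophage markers summed to 30.3 and 113 CPM, neutrophil markers to 43.6 and 113 CPM and B cell markers to 40.1 and 58.0 CPM. Plasma cell markers, with 2 and 0 of them at 0, went the other way at 307 and 147 CPM, as did NK cell markers at 165 and 108 CPM. Their part in the G2/M difference was not tested.

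**Figure D4:**
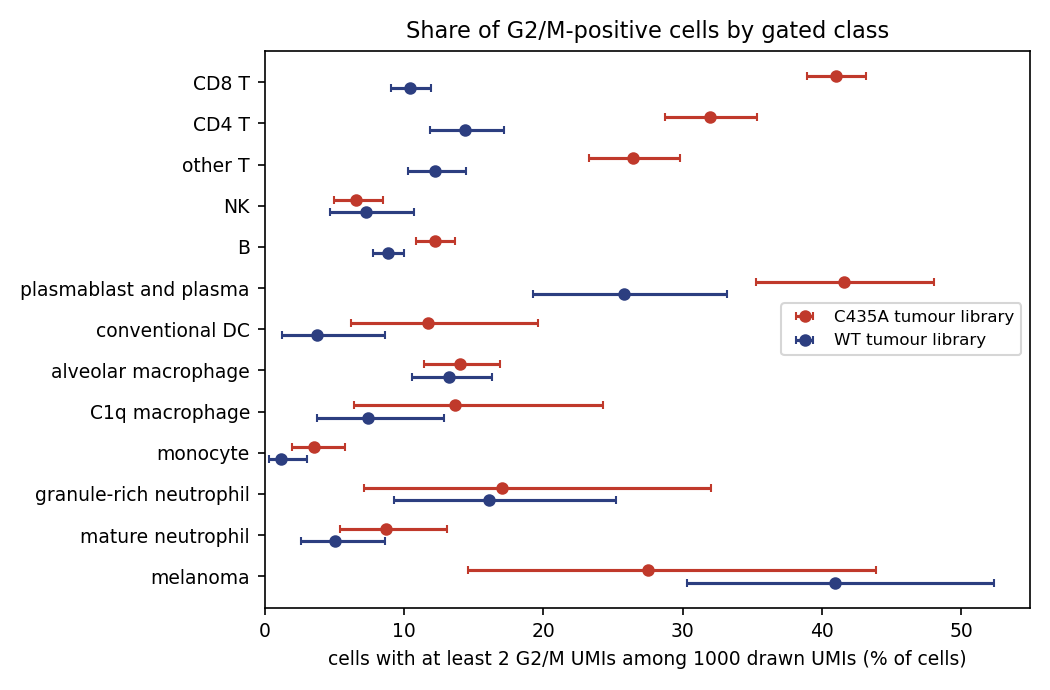
Share of cells with at least 2 UMIs of the 37 genes among 1000 drawn UMIs (horizontal axis, percent of cells) in 13 classes, with exact 95% intervals; red points are the C435A library and blue points the WT library. The intervals of the libraries are apart in the 3 T cell classes, in B cells and in plasmablasts and plasma cells, and overlap in the other 8.

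CD4 T cells, the helper lineage, showed the same genes at a smaller ratio and from a higher level in the WT library (798 and 698 cells; 17200 and 4759 UMIs). The summed log2 ratio was 1.21 [1.16, 1.26], with 36 of 37 genes at least 1.5-fold higher and 0 lower, where 15.2% of all genes were higher and 13.1% lower by that size. Ttk and Anln reached 20 UMIs in the C435A library only, and of the 35 genes that did so in each library 34 were higher. Cyclins and mitotic kinases summed to 899 and 287 CPM (1.65 [1.52, 1.77]), with Ccnb2 at 661 and 117 UMIs (1.85), Ccna2 at 589 and 117 (1.69), Cdk1 at 586 and 116 (1.69) and Aurkb at 390 and 66 (1.92). In the other groups the gene with most UMIs was Ube2c (1635 and 417 UMIs, 1.33 [1.17, 1.49]), Smc4 (1181 and 829), Cenpa (1225 and 334, 1.23 [1.05, 1.41]), Birc5 (1344 and 350, 1.30 [1.13, 1.47]), Nusap1 (483 and 145, 1.09 [0.82, 1.37]) and Prc1 (426 and 84, 1.70 [1.36, 2.05]). Top2a (1466 and 339 UMIs, 1.47) and Mki67 (1046 and 316, 1.08) were higher as well. Smc4 alone was on the other side of 0, at -0.13 [-0.26, -0.00].

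Within the roles the size of the ratio varied in CD4 T cells. Among the partners of the anaphase-promoting complex, Cdca3 had 477 and 111 UMIs (1.46), Cdc20 had 423 and 87 (1.64) and Pimreg had 127 and 24 (1.76). Of the kinetochore genes, Cenpf (429 and 146 UMIs, 0.91), Cenpe (273 and 95, 0.88) and Ndc80 (184 and 63, 0.90) were among the lowest ratios, and Bub1b (199 and 38, 1.74) was higher. Cdca8 of the passenger complex had 672 and 125 UMIs (1.78). The spindle genes Kif11 (409 and 87 UMIs, 1.59), Tpx2 (325 and 84, 1.31) and Tacc3 (285 and 56, 1.70) completed the 4 spindle genes with most UMIs. Kif23 (322 and 92 UMIs, 1.16), Ect2 (136 and 29, 1.59) and Anln (60 and 18, 1.09 [0.31, 1.94]) represented cytokinesis.

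Positive cells were 31.9% [28.7, 35.3] and 14.4% [11.8, 17.2] of CD4 T cells, and strongly positive cells 17.5% and 3.88%. CD4 T cells with a UMI of Foxp3, the factor of regulatory T cells, were few (24 and 49) and had levels of 5759 and 4886 CPM (0.24 [0.10, 0.38]). Of these, 33.3% [15.6, 55.3] and 38.8% [25.2, 53.8] were positive, and they held 1370 of the 4759 UMIs of CD4 T cells in the WT library. A single cell gave 29.6% and 20.2% of the UMIs of the 37 genes in these Foxp3 cells. Other T cells (733 and 1012) had both lineage markers, neither, or only 1 UMI of Cd8a and Cd8b1 with 0 of Cd4. They held 10793 and 3494 UMIs (1.66 [1.60, 1.72]). In them 36 of 37 genes were higher, against 12.6% of all genes, and 0 lower, against 10.6%. Of the 37, 7 reached 20 UMIs in the C435A library only. Among the 4 genes with most UMIs there, Ube2c (917 and 223, 2.07), Top2a (872 and 250, 1.84) and Cenpa (754 and 298, 1.37) were higher and Smc4 (936 and 926 UMIs) had a log2 ratio of 0.05 [-0.08, 0.18]. Gamma delta T cells (20 and 40) held 42 and 229 UMIs, of which 62.4% in the WT library were from 1 cell.

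Genes outside the 37 gave the setting in T cells. Of 64 other genes of G2 and mitosis, 63 were higher in CD8 T cells and 0 lower. The 3 with most UMIs were the chromatin protein Hmgb2 (51094 and 3250 UMIs, 2.90), the microtubule regulator Stmn1 (13543 and 958, 2.74) and the tubulin Tubb4b (6614 and 743, 2.08). All 38 S phase genes were higher, with a median of 1.92, led in UMIs by Pclaf (3.52), Dut (2.22) and Pcna (1.40). Brakes on the cycle and G1 genes went both ways, with 8 of 22 higher and 8 lower. The antiproliferative genes Btg1 (9114 and 10116 UMIs, -1.23), Btg2 (-0.81) and the quiescence factor Klf2 (-0.67) held most UMIs and were lower. In CD4 T cells 56 of 63 measured other G2 and mitosis genes, 37 of 38 S phase genes and 8 of 20 brakes and G1 genes were higher, while 3 of the last were lower.

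B cells carried a moderate G2/M level that was slightly higher in the C435A library. In 2182 and 2614 cells they held 16136 and 12623 UMIs, or 2305 and 1812 CPM (0.35 [0.31, 0.38]). Ube2c (1343 and 933 UMIs, 0.52 [0.40, 0.64]) and Top2a (1422 and 1092, 0.37 [0.26, 0.49]) had intervals above 0. Mki67 (1082 and 1070 UMIs, 0.01 [-0.11, 0.13]) and Smc4 (1105 and 1011, 0.12 [-0.00, 0.25]) did not differ beyond counting error. Of the 37 genes 7 reached 1.5-fold, against 3.71% of all genes (6.27% were lower, and 0 of the 37), namely Ccna2, Ccnb1, Aurkb, Cdc20, Birc5, Hmmr and Kif2c, with ratios from 0.60 to 0.68. Positive cells were 12.2% [10.9, 13.7] and 8.87% [7.80, 10.0]. A small part of the B cells held most of the transcripts, since 40 and 31 cells had 50% of the UMIs.

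Plasmablasts and plasma cells, which secrete antibody, were taken by at least 40 UMIs of Jchain, Mzb1, Sdc1 and 7 like markers (243 and 163 cells). They held 15498 and 8023 UMIs, and their level of 3779 and 2449 CPM (0.63 [0.59, 0.66]) was the second highest of any class in the WT library. Ube2c had 1620 and 790 UMIs (0.71 [0.59, 0.84]), Mki67 had 1462 and 923 (0.34 [0.22, 0.46]), Top2a had 1186 and 709 (0.42 [0.28, 0.55]) and Birc5 had 1152 and 495 (0.89 [0.74, 1.05]). Of 37 genes, 20 were at least 1.5-fold higher, where 23.4% of all genes were, and 0 were lower, where 4.48% were. The scale of this class shifts with immunoglobulin RNA, which took 30.4% and 44.0% of its UMIs. The median ratio of all genes was 0.33, with immunoglobulin genes out of the total the summed ratio was 0.31, and with TMM scaling it was 0.35 and 11 genes reached 1.5-fold. The share of all genes past 1.5-fold was not read with TMM scaling.

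Positive plasmablasts and plasma cells were 41.6% [35.3, 48.0] and 25.8% [19.2, 33.2], a difference of 15.8 points [6.40, 24.6]. Those that also met the B cell gate were positive in 45.8% [38.6, 53.2] and 29.0% [21.4, 37.6]. Those without it were positive in 26.4% [15.3, 40.3] and 12.5% [3.51, 29.0]. Strongly positive cells of the class had a mean of 8.0 and 7.92 UMIs of the 37 genes per 1000. The 1000 drawn UMIs include immunoglobulin RNA, which took 30.4% and 44.0% of the UMIs of this class. Other genes were thus read at a lower depth in the WT library, and shares with immunoglobulin genes left out were not computed.

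Conventional dendritic cells, which present antigen to T cells, were few (103 and 132) and held 1869 and 632 UMIs. Their level was 2196 and 494 CPM (2.15 [2.02, 2.29]). The 32 genes with enough UMIs were at least 1.5-fold higher, against 14.2% of all genes, and 0 were lower, against 9.75%. Since 21 of them reached 20 UMIs in the C435A library only, this count is a description. The 7 that did so in each library were Aurkb, Ube2c, Mki67, Top2a, Smc4, Cenpa and Birc5, and 7 of these 7 were higher. Ube2c had 218 and 41 UMIs (3.0 [2.51, 3.52]), Top2a had 142 and 55 (1.96), Smc4 had 121 and 87 (1.06 [0.66, 1.48]) and Mki67 had 94 and 69 (1.03). These counts rest on a handful of cells: 3 and 2 cells held 50% of the UMIs, and a single cell held 30.0% and 30.9%. Without that cell in each library the ratio was 2.25. Positive cells were 12 of 102 and 5 of 132, or 11.8% [6.23, 19.6] and 3.79% [1.24, 8.62]. By subset, type 2 cells had 1007 and 306 UMIs in 43 and 57 cells, and type 1 cells had 248 and 238 in 15 and 10 cells. Mature dendritic cells had 614 and 88 in 45 and 65 cells, of which 1 cell gave 91.4% of those in the C435A library.

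Alveolar macrophages, which line the air spaces, had nearly the same level in both tumours. In 650 and 574 cells they held 6757 and 8816 UMIs, or 1259 and 1303 CPM (-0.05 [-0.10, -0.00]). Positive cells were 14.0% [11.4, 16.9] and 13.2% [10.6, 16.3], a difference of 0.76 points [-3.13, 4.59]. Of 37 genes 1 was at least 1.5-fold higher and 0 lower, where 10.2% and 5.11% of all genes were. This gene was Kif23 (311 and 261 UMIs, 0.59 [0.35, 0.83]). Cdc20 (0.49 [0.10, 0.88]), Anln (0.44 [0.13, 0.76]) and Smc4 (712 and 801 UMIs, 0.16 [0.02, 0.31]) were also above 0. Ube2c went the other way (352 and 643 UMIs, -0.53 [-0.73, -0.34]), while Top2a (532 and 672, -0.00 [-0.17, 0.16]) and Mki67 (407 and 530, -0.05 [-0.24, 0.14]) had intervals that held 0.

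The remaining myeloid cells and NK cells rested on few dividing cells. C1q macrophages (66 and 148 cells) held 710 and 1565 UMIs (0.48 [0.35, 0.61]), and 1 cell gave 37.7% and 24.2% of them. Without it the ratio was 0.21. Of 30 measured genes, 13 of which reached 20 UMIs in the WT library only, 13 were higher and 3 lower (Plk1, Tacc3 and Bub1b), where 12.3% and 10.8% of all genes were. Of the 14 genes that reached 20 UMIs in each library, 8 were higher and 0 lower. Plk1, Tacc3 and Bub1b were not among these 14, so the count of lower genes is a description. Top2a (74 and 95 UMIs, 1.26) and Birc5 (57 and 112, 0.64) were above 0, Smc4 (48 and 132, 0.16 [-0.35, 0.65]) and Ube2c (36 and 137, -0.31 [-0.88, 0.23]) held 0, and Plk1 (4 and 35 UMIs, -1.51 [-3.46, -0.03]) was the gene whose interval lay below 0.

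Monocytes (424 and 338 cells) held 711 and 274 UMIs (1.33 [1.13, 1.53]), with 11 of 14 genes higher against 6.97% of all genes, and 0 lower, against 9.61%. This count is no support for a shared direction, since 10 of the 14 reached 20 UMIs in the C435A library only, and 2, Smc4 and Cenpa, in each library. In the C435A library 1 cell gave 30.4% of them, and without the top cells the ratio was 0.84. Top2a had 54 and 6 UMIs (3.12) and Ube2c 41 and 18 (1.14), whereas Smc4 (87 and 66, 0.35 [-0.13, 0.84]) and Cenpa (71 and 55, 0.32 [-0.21, 0.86]) held 0. NK cells (828 and 322) held 1351 and 396 UMIs (0.41 [0.25, 0.58]), with 10 of 24 genes higher, against 7.38% of all genes, and 1 lower (Kif20b, at -0.62 [-1.60, 0.41]), against 8.70%. Ube2c (99 and 13 UMIs, 1.57) and Cenpa (172 and 42, 0.68) were above 0, and Smc4 (196 and 91, -0.25 [-0.62, 0.12]) and Top2a (108 and 52, -0.30 [-0.79, 0.20]) were not. Of the 24 genes, 18 reached the minimum of 20 UMIs in the C435A library only, so their count is a description. Positive NK cells were 6.59% and 7.28%, a difference of -0.686 points [-4.42, 2.38] that was 4.99 unthinned and 6.09 when thinned to 2000 UMIs.

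Granule-rich neutrophils, with at least 10 UMIs of Camp, Ngp and Ltf, express the granule genes of the precursors in which neutrophils are made. In 41 and 93 cells they held 589 and 1224 UMIs, or 2458 and 2071 CPM (0.25 [0.10, 0.39]). Without the top cell in each library the ratio was -0.03. Of 27 genes, 12 of which reached 20 UMIs in the WT library only, 8 were higher, against 10.6% of all genes, and 0 lower, against 16.1%. The 4 with most UMIs, Ube2c (66 and 161 UMIs, 0.02), Mki67 (34 and 93, -0.15), Top2a (44 and 79, 0.46) and Smc4 (41 and 80, 0.34) had intervals that held 0. Positive cells were 17.1% and 16.1%. Mature neutrophils (234 and 247 cells) held 233 and 145 UMIs (0.60 [0.29, 0.91]). The ratio was 1.17 without Smc4, Kif23 and Cenpa and 0.026 with likely doublets kept. Only Kif23 (87 and 62 UMIs), Cenpa (26 and 23) and Smc4 (24 and 20) reached 20 UMIs in this class, 0 of these 3 were higher by 1.5-fold, against 20.9% of all genes, 0 were lower, against 6.56%, and their intervals held 0.

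Melanoma cells that passed the CD45 sort (42 and 88) had a lower level in the C435A library. They held 1989 and 11877 UMIs, or 1519 and 3074 CPM (-1.02 [-1.09, -0.95]), and 31 of 37 genes were at least 1.5-fold lower, against 8.72% of all genes, and 0 higher, against 7.16%. Of the 37, 8 reached 20 UMIs in the WT library only. Birc5 had 170 and 1107 UMIs (-1.14 [-1.38, -0.91]), Ube2c had 122 and 919 (-1.35 [-1.64, -1.08]) and Cdca3 had 105 and 749 (-1.27 [-1.58, -0.98]), while Top2a had 195 and 610 (-0.08 [-0.32, 0.15]). The S phase genes had a summed ratio of -0.07 in these cells. Here too few cells carried the sum: 1 cell held 28.7% and 15.3% of the UMIs. With cells weighted alike the ratio was -0.41, and with the gate minimum doubled it was -0.52. Positive cells were 27.5% [14.6, 43.9] and 41.0% [30.3, 52.3], a difference of -13.5 points [-29.1, 4.82], whose interval held 0, and unthinned it was 3.90 points. They are the cells whose genotype the labels describe, and these are only those that entered the sort.

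Smc4, Cenpa and Kif23 were also seen in cells with no other transcript of the list. They were picked after their values were seen. For each of the 37 genes, its level was read in cells with 0 UMIs of the other 36. In CD8 T cells of this kind, Smc4 was at 255 and 251 CPM and was seen in 46.0% [41.5, 50.5] and 45.0% [41.9, 48.2] of 489 and 1004 cells. In the WT library this is close to its 283 CPM in the whole class, and in the C435A library it is below the 342 CPM there. Cenpa was at 68.7 and 42.6 CPM, and Kif23 at 28.1 and 25.3. Of the other 34 genes, the highest was Ube2c in the C435A library, at 38.7 CPM and so above Kif23, and Top2a in the WT library, at 17.3 CPM.

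The 3 genes differed by cell type. In CD4 T cells with 0 UMIs of the others, Smc4 was again highest (226 and 307 CPM). Kif23 (16.4 and 17.9 CPM) was below Top2a (37.4 and 13.7) in the C435A library and above it in the WT library. In B cells Cenpa (107 and 92.9 CPM) stood above Smc4 (80.2 and 70.6), and Kif23 (12.3 and 13.5 CPM) was below Top2a (21.2 and 13.8). In mature neutrophils Kif23 was at 169 and 123 CPM and in 22.3% [15.9, 29.9] and 20.1% [14.5, 26.7] of cells, while Cenpa was at 54.2 and 48.5 CPM. The annotation (GENCODE vM21) has no other gene over Kif23 or Cenpa, and over Smc4 the microRNA genes Mir15b and Mir16-2 on the same strand. In all, 19 of the 37 genes overlap another annotated gene, 8 of them on the same strand. Whether the counting used strand was not stated in the labels, so UMIs of overlapping genes on opposite strands, such as Ube2c with Tnnc2 or Prc1 with Rccd1, could not be told apart.

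**Figure D5:**
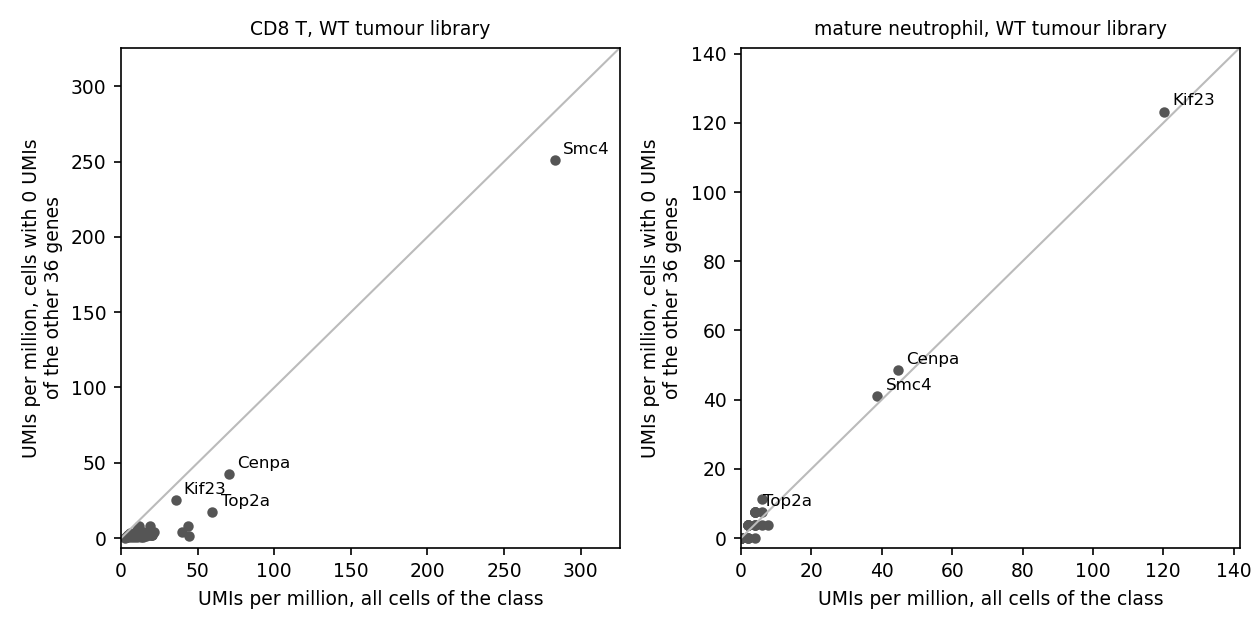
Level of each of the 37 genes in cells with 0 UMIs of the other 36 (vertical axis, CPM) against its level in the whole class (horizontal axis, CPM), for CD8 T cells (left) and mature neutrophils (right) of the WT library; the line marks equal levels. Smc4 in CD8 T cells (251 against 283 CPM) and Kif23 in mature neutrophils (123 against 120 CPM) lie near the line, and most other genes lie near the bottom left.

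The makeup of G2/M transcripts was read in the strongly positive cells of classes with at least 20 of them in both libraries. The early set was Top2a, Mki67, Cdk1, Ccna2, Smc4 and Kif11, and the late set was Ccnb1, Cdc20, Plk1, Cenpa, Aurka, Cdca3, Cenpe, Kif20b, Ckap2 and Hmmr. Late genes gave 43.6% [41.8, 45.4] and 47.6% [39.7, 55.5] of the UMIs of both sets in CD8 T cells, and 42.7% [39.4, 46.0] and 45.6% [38.1, 53.1] in CD4 T cells. They gave 40.9% [36.5, 45.4] and 39.9% [35.3, 44.6] in B cells, 41.4% [35.3, 47.7] and 35.5% [26.6, 45.1] in plasmablasts and plasma cells, and 39.5% [32.9, 46.5] and 39.4% [32.9, 46.3] in alveolar macrophages. Within each class the intervals of the libraries overlapped. The cells were chosen by the same UMIs, so this is a description. Ube2c gave 9.1% and 8.2% of the 37 genes' UMIs in strongly positive CD8 T cells and 5.5% and 5.9% in alveolar macrophages, where Top2a (8.9% and 9.1%) gave more. Across the 37 genes, the shares in strongly positive CD8 T cells of the libraries had a Spearman correlation of 0.93 (Pearson 0.92). It was 0.93 (0.95) in alveolar macrophages, 0.91 (0.92) in B cells, 0.83 (0.95) in CD4 T cells and 0.81 (0.85) in plasmablasts and plasma cells. The lowest between any pair was 0.705 (0.76), of CD4 T cells and alveolar macrophages of the WT library. These correlations are across genes of the same libraries, which share gene length and capture, and carry no test.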

How the data were processed

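The authors deposited UMI counts per gene and cell barcode, made with Cell Ranger 7.2.0 per the file headers and on GRCm38 per the submitters' processing notes. Intron and strand settings and the cell calling were not stated in the labels. The labels name both the BD Rhapsody and the 10x platform. Dense text tables of the same samples were not used.

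Barcodes needed 200 genes, 500 UMIs and a mitochondrial share below 20% (102 and 157 removed), at median depths of 3200.0 and 2684 UMIs. The highest Scrublet scores (scanpy 1.11.5) were removed at 0.8% per 1000 barcodes (844 and 800). Cells were classed by summed UMIs of marker genes, and cells that met more than 1 lineage were set aside. Gate minimums were set after the marker distributions were seen, and none used a G2/M gene. Classes with at least 40 cells per library, a minimum lowered after class sizes were seen, and at least 200 UMIs of the 37 genes were compared (13 classes).

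UMIs were summed per class and divided by the class total. Log2 ratios carry exact conditional 95% intervals, shares Clopper-Pearson intervals and differences of shares Newcombe intervals, all of counting error only. A gene was measured with at least 20 UMIs over both libraries and called higher or lower from 1.5-fold. A count of 0 was set to 3 counts. For shares of positive cells, 1000 UMIs were drawn from every cell. TMM scaling (edgeR 4.0.16) was an alternative. The ratio computation was run on simulated counts with counting error only, which cannot show how the intervals fare under spread between cells or libraries. Python 3.11.15, numpy 2.4.6, scipy 1.17.1 and pandas 2.3.3 were used.

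The 37 genes and the lists were chosen with earlier results of these data known. All 37 genes are named once. In CD8 and CD4 T cells up to 4 genes per role with most UMIs are named, in other classes the 4 with most UMIs and any whose interval lies on the other side of 0 from the summed ratio, and of the other lists the 3 with most UMIs. Genes named beside a count of 7 or fewer calls were chosen after their values were seen. The minimum of 5 UMIs for strongly positive cells, and the alternatives that leave out 3 genes or the top cell, were chosen after the data were seen.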

Additional observations from a re-analysis of the deposited data

Results flagged for a closer look

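The summed log2 ratio of the 37 genes had the opposite sign to that of CD8 T cells (2.62) in 2 classes. It was -0.049 in alveolar macrophages, where the interval ended just below 0, and -1.02 in melanoma cells. With 1 library per group the difference between classes was not tested.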

How the results depend on the processing

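No paired analysis was possible because each group had 1 library, and for the same reason no library could be left out. With a minimum of 1000 UMIs per cell, or a mitochondrial share under 10%, the summed log2 ratio of all 13 classes moved by less than its counting interval. With TMM scaling, whose effective library ratio shifted by -0.15 in CD8 T cells, 0.28 in plasmablasts and plasma cells, 0.12 in alveolar macrophages and 0.19 in mature neutrophils, the first 3 of these became 2.77, 0.35 and -0.17. With cells weighted alike the ratios were 2.46 in CD8 T, 1.52 in CD4 T, 1.54 in other T, 0.22 in NK, 0.43 in B, 0.67 in plasmablasts and plasma cells, 1.83 in conventional dendritic cells, 0.62 in C1q macrophages, 1.02 in monocytes and -0.41 in melanoma cells. With gate minimums doubled they were 2.57 in CD8 T, 1.08 in CD4 T, 1.60 in other T, 0.61 in NK, 0.86 in plasmablasts and plasma cells, 1.90 in conventional dendritic cells, 0.68 in C1q macrophages, 2.07 in monocytes, 0.93 in mature neutrophils and -0.52 in melanoma cells. With immunoglobulin genes out of the total, plasmablasts and plasma cells had 0.31. With no doublet removal the ratios were 2.50 in CD8 T, 1.72 in other T, 0.31 in B, -0.11 in alveolar macrophages, 0.56 in monocytes, 0.026 in mature neutrophils and -0.94 in melanoma cells. Without Smc4, Kif23 and Cenpa they were 3.22 in CD8 T, 1.40 in CD4 T, 2.06 in other T, 0.38 in B, 2.38 in conventional dendritic cells, -0.11 in alveolar macrophages, 1.84 in monocytes and 1.17 in mature neutrophils. Without the cell of most such UMIs in each library they were 2.68 in CD8 T, 1.26 in CD4 T, 1.74 in other T, 0.68 in plasmablasts and plasma cells, 0.21 in C1q macrophages, 0.84 in monocytes and -1.24 in melanoma cells, and granule-rich neutrophils turned to -0.027.

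At 2-fold in place of 1.5-fold, the genes higher were 6 in NK, 0 in B, 6 in plasmablasts and plasma cells, 0 in alveolar macrophages and 3 in granule-rich neutrophils, and those lower were 0 in NK. With TMM scaling 11 were higher in plasmablasts and plasma cells and 0 in alveolar macrophages, where 3 were lower, and 0 were lower in NK. With no minimum on UMIs, 16 were higher in NK, 32 in monocytes and 13 in mature neutrophils, and 6 were lower in C1q macrophages, 1 in monocytes, 5 in granule-rich neutrophils and 11 in mature neutrophils. The shares of all genes were not read at these 2-fold, TMM and no-minimum settings, so the counts of genes are a description only. The difference in the share of positive cells was 27.9 points in CD8 T with at least 3 UMIs, and 18.1 in other T with gate minimums doubled. Not thinned it was 21.9 in CD4 T, 4.99 in NK, 8.13 in B, 6.90 in monocytes and 11.7 in mature neutrophils. Thinned to 2000 UMIs it was 6.09 in NK, 6.36 in B and 19.1 in mature neutrophils. Differences whose main interval held 0 also changed sign: NK cells as given above (main -0.686), melanoma cells with 3.90 points unthinned, granule-rich neutrophils with -0.395 with no doublet removal, and alveolar macrophages with -2.78 at no fewer than 3 UMIs and -0.964 without the 3 genes. The cause of these changes was not tested. Few cells limit conventional dendritic cells, C1q macrophages, granule-rich neutrophils and melanoma cells.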
